A study of Mus musculus with 6 samples.

Results

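The genes described are 34 genes of protein folding and protein degradation in the endoplasmic reticulum (ER). They were taken by name from the deposited expression table, in which each of the 34 names stood once, among 34745 genes in all. RNA was sequenced from mouse CD4 T cells in 2 groups of 3 libraries. The first group had been exposed to PM2.5, fine particles of polluted air, at 100 µg/ml, and the second had received PBS as mock. All cultures began with naive CD4 T cells of C57BL/6 mice (spleen; female, 6 weeks old, per the labels), and were seeded on plates coated with antibodies to CD3 and CD28. Every culture, the PBS cultures included, received the cytokines IL-6 (20 ng/ml), IL-23 (10), TGF-beta (2) and IL-2 (5, all in ng/ml). Antibodies to IFN-gamma and IL-4 at 5 µg/ml each were added as well, a mixture that drives cells towards the IL-17 producing (Th17) fate. Cultures of both groups also held 55 µM mercaptoethanol and 10% fetal bovine serum. The particles or PBS were added 6 h after stimulation and RNA was taken at 4 days. Whether the replicates came from separate animals or cultures is not stated in the labels. The p-values therefore rest on the spread between these libraries alone, which may be technical.

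Secreted and membrane proteins enter the ER unfolded. There, chaperones of the Hsp70 and Hsp90 families, lectins that bind glycans and enzymes that form disulfide bonds help them to fold. Proteins that fail to fold are drawn back into the cytosol and destroyed by the proteasome, a route called ER-associated degradation (ERAD). The membrane sensors IRE1 (gene Ern1), ATF6 and PERK answer an excess of unfolded protein with the unfolded protein response. IRE1 splices the mRNA of the transcription factor XBP1 and ATF6 is itself cut into a transcription factor, and both raise genes of folding and degradation. PERK acts through eIF2 alpha and the factors ATF4 and CHOP. The response is best known from plasma cells, which secrete antibody in bulk, and its factors are also expressed in activated T cells.

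Library totals were 25397965 to 27215853 counts in the PM2.5 libraries and 19511561 to 22353131 counts in the PBS libraries, so each PM2.5 library was the deeper. Marker genes of CD4 T cells summed to 1318 to 1349 CPM (counts scaled to library size) in the PM2.5 libraries and 1481 to 1507 CPM in the PBS libraries, and with PM2.5 1 of these 5 genes rose and 4 fell. Of 6 plasma cell markers 1 rose and 2 fell with PM2.5, and their sum was 2837 to 2882 CPM in the PM2.5 libraries against 1276 to 1317 CPM in the PBS libraries. Irf4, which activated T cells also express, made up most of this sum. The 2 that fell were Sdc1 and Prdm1. Sdc1 had 12.4 to 13.0 CPM with PM2.5 and 99.6 to 103 CPM with PBS. Prdm1 had 2.13 to 2.40 CPM with PM2.5 and 3.23 to 3.43 CPM with PBS. The plasma cell genes Jchain and Mzb1 did not exceed 0.294 CPM in any library, and Tnfrsf17 had no count in any. Markers of B cells summed to 0.433 to 0.514 CPM with PM2.5 and 1.18 to 2.01 CPM with PBS, and those of macrophages and monocytes to 2.98 to 3.37 CPM with PM2.5 and 5.32 to 7.36 CPM with PBS. Lyz2 had no count in any library, nor had the B cell gene Ms4a1. Those of CD8 T and NK cells summed to 32.0 to 34.5 CPM with PM2.5 and 20.5 to 24.0 CPM with PBS, and 2 of these 5 rose, 1 fell and Ncr1 had no count. Neutrophil (0.551 to 0.689 CPM with PM2.5, 5.28 to 6.27 CPM with PBS), dendritic cell (0.191 to 0.394 CPM with PM2.5, 0.564 to 0.671 CPM with PBS) and erythroid markers (0 CPM with PM2.5, 0 to 0.135 CPM with PBS) were all low, and Th17 markers summed to 2282 to 2754 CPM with PM2.5 and 3251 to 3294 CPM with PBS. The part of these markers in the results was not tested. In such bulk RNA, fewer cells of a type and less RNA per cell cannot be told apart.

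With PM2.5, 32 of the 34 genes rose and 2, Edem2 and Os9, fell, in edgeR's quasi-likelihood test with an adjusted p under 0.05. Among all 12967 genes tested, 70.6% were called, 35.2% higher and 35.3% lower. The median log2 fold change of the 34 genes was 0.67 (1.59-fold), against -0.01 over all genes tested. At least 2-fold rises were found for 11 of the 34 genes, against 6.51% of all genes tested (18.9% in either direction), while the steepest fall of a member was 1.33-fold and 12.4% of all genes tested fell at least 2-fold. The PM2.5 and PBS libraries did not overlap for any of the 34 genes, a property that 74.8% of all genes tested shared (37.4% with PM2.5 the higher). Together the 34 genes took 0.933, 0.911 and 0.919% of the counts of the PM2.5 libraries, against 0.542, 0.557 and 0.538% of those of the PBS libraries. The genes thus held a larger share of the counts in every PM2.5 library than in any PBS library. The exons of 7 members (Hsp90b1, Manf, Pdia3, Pdia6, Syvn1, Derl2 and Kdelr3) share 4 to 415 bases with another annotated gene, and reads from there cannot be told apart.

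**Figure D1:**
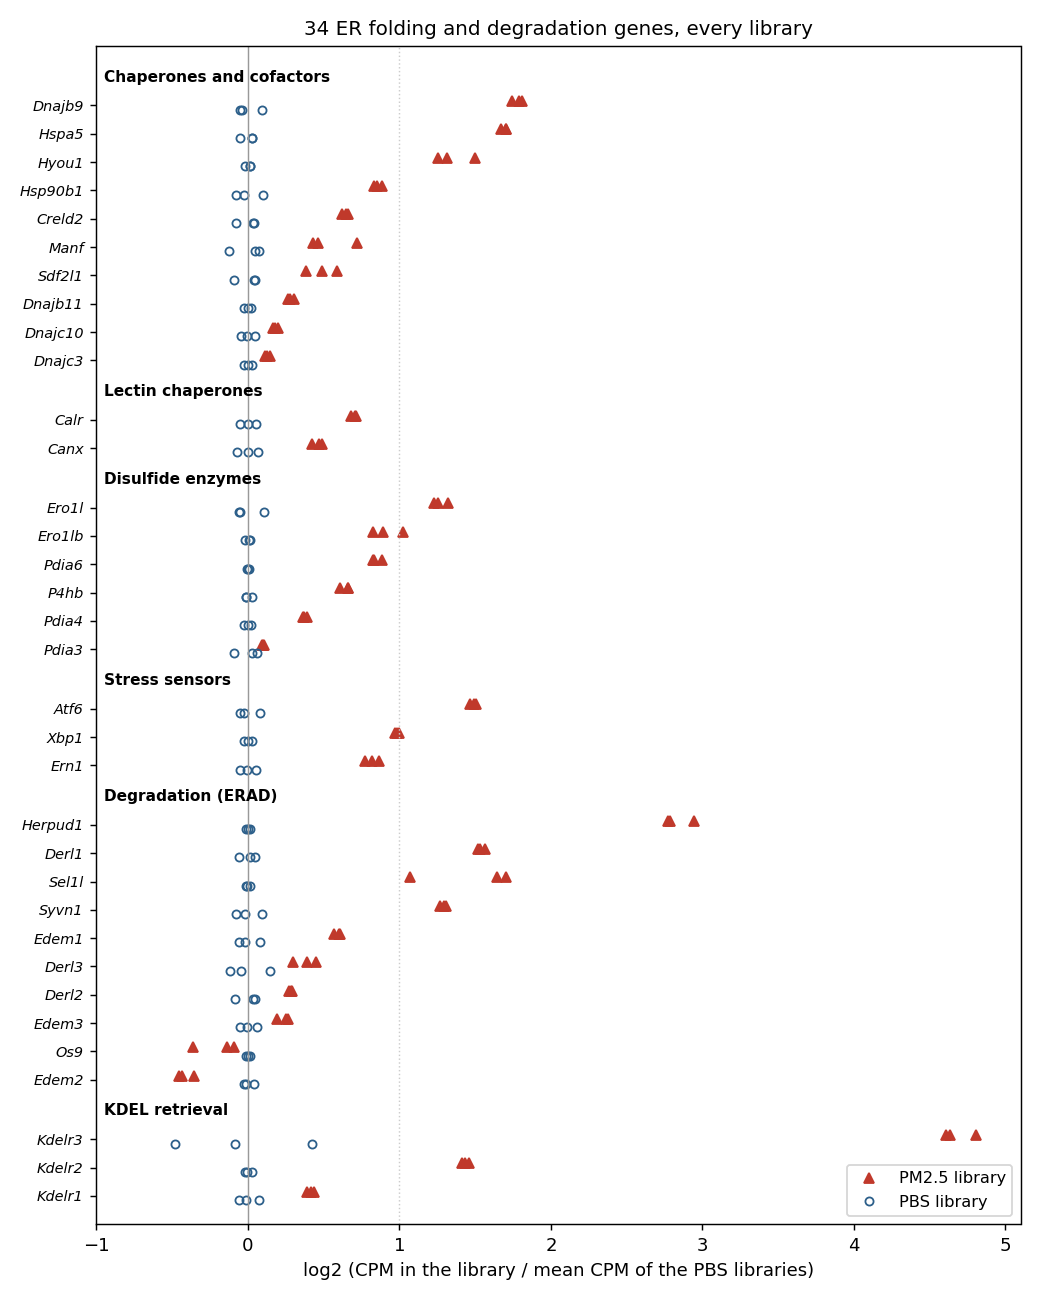
Each row is a gene, ordered by role and by size of change, and each symbol a library (triangles, PM2.5; open circles, PBS; n = 3 each). The horizontal axis gives the log2 ratio of a library's CPM to the mean CPM of the PBS libraries. The PM2.5 triangles lie to the right of the PBS circles for 32 genes and to the left for Edem2 and Os9, and the dotted line marks a 2-fold rise.

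The elements to which ATF6 and XBP1 are known to bind were looked for in the promoters of the members. RefSeq promoter windows (GRCm38.p6, 250 bases before to 50 after the start) were matched for 29 of the 34 genes, all but Hyou1, Manf, Atf6, Derl1 and Kdelr2. They were searched on both strands, with no mismatch, for the ER stress response element (ERSE: CCAAT, any 9 bases, CCACG), for its variant ERSE-II (ATTGG, any base, CCACG), for TGACGTGG, the core of the unfolded protein response element (UPRE), and for TGATGNAA, a form of the C/EBP-ATF response element to which ATF4 binds (CARE). No match of 1 motif overlapped a match of another in these windows. An ERSE stood in the windows of 10 of the 29 genes (34.5%) and in 0.119% of all 32851 windows of the RefSeq table. An ERSE-II stood in 2 of the 29 genes (Dnajb11 and Herpud1) and in 0.0365% of all windows. UPRE was found in Kdelr3 only (0.676% of all windows), and CARE in Herpud1 and Kdelr1 (3.97% of all windows). The ERSE was first described in promoters of the mammalian BiP and GRP94 genes, so its presence here is no new finding. A match is a description of the letters and does not show that a factor bound there.

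The 11 ERSE matches and the 2 ERSE-II matches are shown because 12 of the 14 windows with a searched motif hold one of these. They are written 5′ to 3′ in the direction of the motif, with its fixed bases in capitals.
Hspa5 ERSE (chr2:34772025-34772043, plus strand): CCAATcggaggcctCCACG
Hsp90b1 ERSE (chr10:86705638-86705656, minus strand): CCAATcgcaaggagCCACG
Hsp90b1 ERSE (chr10:86705533-86705551, plus strand): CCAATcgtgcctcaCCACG
Dnajc3 ERSE (chr14:118937827-118937845, plus strand): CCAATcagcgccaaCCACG
Creld2 ERSE (chr15:88819520-88819538, minus strand): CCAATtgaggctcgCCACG
Calr ERSE (chr8:84847075-84847093, plus strand): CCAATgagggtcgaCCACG
Canx ERSE (chr11:50325800-50325818, minus strand): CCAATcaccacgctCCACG
Pdia6 ERSE (chr12:17266491-17266509, plus strand): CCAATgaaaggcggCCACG
Ero1lb ERSE (chr13:12565682-12565700, minus strand): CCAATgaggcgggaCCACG
Syvn1 ERSE (chr19:6046532-6046550, plus strand): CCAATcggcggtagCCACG
Derl3 ERSE (chr10:75893242-75893260, minus strand): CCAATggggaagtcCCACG
Dnajb11 ERSE-II (chr16:22857852-22857862, plus strand): ATTGGcCCACG
Herpud1 ERSE-II (chr8:94386377-94386387, plus strand): ATTGGgCCACG
The letters between the capitals differ from gene to gene. All ERSE matches lay between positions -212 and -26 relative to the RefSeq start, and the ERSE-II matches at -52 to -42 in Herpud1 and at 7 to 17, past the start, in Dnajb11.

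The promoters of Kdelr3 and Herpud1, the genes with the 2 largest rises, are shown as the 250 bases before the RefSeq start, on the strand of the gene, with each whole motif match in capitals.
Kdelr3 promoter (chr15:79516158-79516407, plus strand): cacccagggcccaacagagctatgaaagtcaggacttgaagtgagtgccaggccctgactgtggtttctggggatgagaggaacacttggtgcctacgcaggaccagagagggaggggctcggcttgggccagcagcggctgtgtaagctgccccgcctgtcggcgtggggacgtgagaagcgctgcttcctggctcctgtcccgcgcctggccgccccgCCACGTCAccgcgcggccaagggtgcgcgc
Herpud1 promoter (chr8:94386179-94386428, plus strand): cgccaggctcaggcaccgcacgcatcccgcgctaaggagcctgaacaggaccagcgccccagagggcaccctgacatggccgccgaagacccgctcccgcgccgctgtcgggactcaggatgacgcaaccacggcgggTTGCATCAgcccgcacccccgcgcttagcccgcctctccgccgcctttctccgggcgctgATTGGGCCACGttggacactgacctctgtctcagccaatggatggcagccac
In Kdelr3 the capitals are the UPRE, and in Herpud1 they are a CARE and, nearer the start, the ERSE-II. The UPRE and the CARE lie on the opposite strand and are read here as their reverse complement.

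The 12 members with an ERSE or ERSE-II had a median log2 fold change of 0.77 with a range of 0.13 (Dnajc3) to 2.84 (Herpud1). The 17 with a window but neither motif had a median of 0.49 and a range of -0.42 (Edem2) to 4.65 (Kdelr3). The ranges overlapped widely, and members with the same element moved by very different amounts. Members without a window were not searched and stand in neither group, though most of them rose strongly. Their log2 fold changes were 1.54 (Derl1), 1.49 (Atf6), 1.44 (Kdelr2), 1.36 (Hyou1) and 0.54 (Manf). Outside the members, 8 genes tested had an ERSE, of which 4 fell and 4 did not pass (median -0.26), and 6 had an ERSE-II, of which 4 rose and 1 fell (median 0.25). The genes with either element include the relatives Xlr3a, Xlr3b and Xlr3c, named after their values were seen. They may not count as separate cases, and their means were low, at 1.03 to 6.64 CPM. The median of the genes with an ERSE lies between the values of Xlr3c (-0.23) and Xlr3b (-0.29). Of the 102 other genes tested with a UPRE 57 rose and 24 fell (median 0.34), and of the 267 with a CARE 110 rose and 90 fell (median 0.07). Over all 9731 other genes tested with a window, 3566 rose and 3407 fell, with a median of 0.01.

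**Figure D2:**
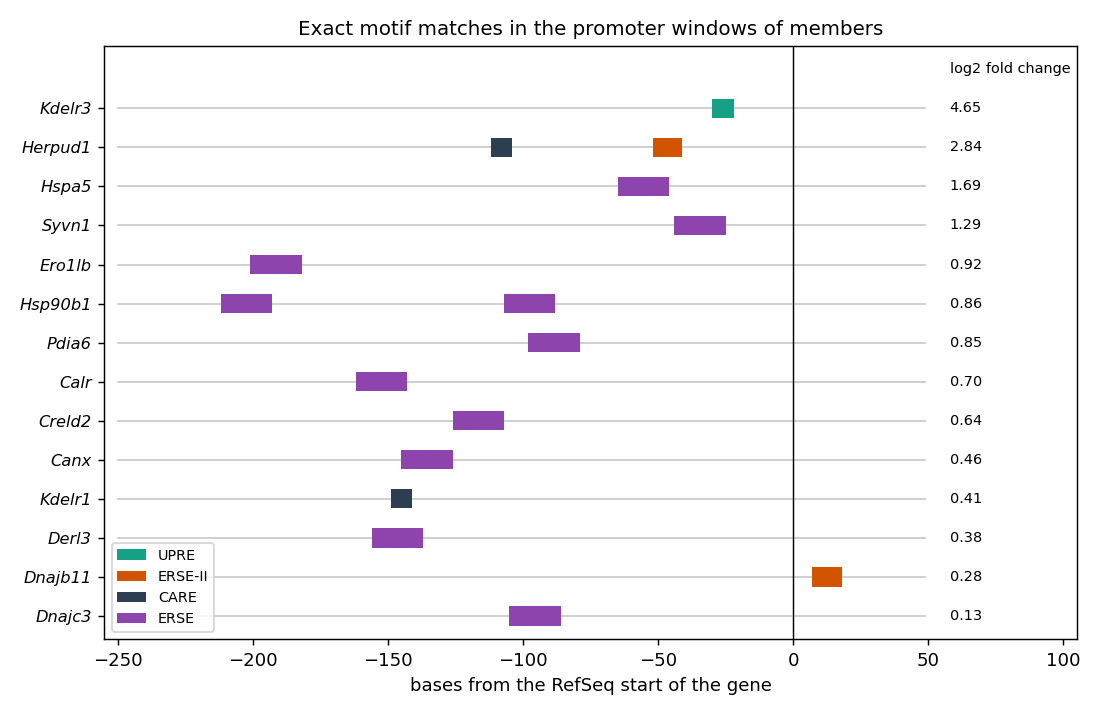
Positions of exact motif matches in the RefSeq promoter windows of the 14 members that hold any, in bases from the start of the gene, ordered by log2 fold change (numbers at the right). Bars are matches to scale in colours by motif. The ERSE of Hspa5 begins at -65 and that of Dnajc3, the least changed of the 14, at -105.

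All 10 chaperones and their cofactors rose, with a median log2 fold change of 0.59. Hspa5 encodes BiP, the Hsp70 of the ER, which binds unfolded chains and holds the stress sensors inactive (ENSMUSG00000026864, mm10 chromosome 2, 34771970 to 34777547). Its promoter holds one of the ERSE matches printed before. It stood at 1029, 1027 and 1002 CPM in the PM2.5 libraries, against 321, 321 and 305 CPM in the PBS libraries. Replicates lay within a few per cent of each other and the groups were far apart, with a log2 fold change of 1.69 (SE 0.03, edgeR adjusted p = 2.11e-11). Dnajb9, a J-domain partner of BiP that represses IRE1, had 61.3, 60.5 and 58.6 CPM with PM2.5 and 16.8, 17.02 and 18.6 CPM with PBS. This was the steepest rise of the chaperones, at 1.78 (SE 0.06, edgeR adjusted p = 1.03e-09). Hyou1, the nucleotide exchange factor of BiP, had 327, 314 and 371 CPM with PM2.5 and 132, 129 and 132 CPM with PBS (log2 fold change 1.36, SE 0.06).

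Hsp90b1 encodes GRP94, the Hsp90 of the ER, which completes the folding of integrins and Toll-like receptors. It had 960, 939 and 924 CPM in the PM2.5 libraries against 511, 556 and 492 CPM in the PBS libraries (log2 fold change 0.86, SE 0.04). The J-domain cofactors other than Dnajb9 moved much less: Dnajb11 rose by 0.28, the reductase Dnajc10 by 0.18 and Dnajc3, a J-domain protein of the ER lumen, by 0.13 on the log2 scale. Dnajb11 had 129 to 132 CPM with PM2.5 and 106 to 109 CPM with PBS, and Dnajc10 had 130 to 133 CPM with PM2.5 and 112 to 119 CPM with PBS. Dnajc3 had 155, 153 and 152 CPM with PM2.5 and 138, 143 and 140 CPM with PBS. Its groups were separate but close (edgeR adjusted p = 0.00416), and it did not pass with library totals, with a filter at 5 CPM or with limma on FPKM (adjusted p = 0.0878, 0.0604 and 0.0746). The remaining cofactors rose by 0.49 to 0.64 on the log2 scale. They were Sdf2l1, which works with J-domain proteins, and the secretable stress proteins Manf and Creld2. Sdf2l1 had 44.6 to 51.5 CPM with PM2.5 and 32.2 to 35.4 CPM with PBS, and Creld2 had 53.1 to 54.5 CPM with PM2.5 and 32.6 to 35.6 CPM with PBS. Manf had 146, 150 and 179 CPM in the PM2.5 libraries and 99.3, 112 and 114 CPM in the PBS libraries. Its annotated exons share 146 bases with Vprbp on the other strand (171 CPM with PM2.5, 84.8 CPM with PBS), and no source used here states a strand setting, so its value is uncertain.

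The lectin chaperones calreticulin (Calr), soluble in the ER, and calnexin (Canx), its membrane-bound relative, hold glycoproteins while they fold. Calr had 998, 1002 and 980 CPM in the PM2.5 libraries, against 589, 633 and 611 CPM in the PBS libraries. Canx had 565, 573 and 548 CPM with PM2.5 and 409, 428 and 389 CPM with PBS. Both rose beyond the spread of their replicates, Calr by 0.70 (SE 0.03, edgeR adjusted p = 1.21e-08) and Canx by 0.46 (SE 0.04, edgeR adjusted p = 1.42e-06) on the log2 scale. Calr-ps, an annotated processed pseudogene, could share reads with Calr, so the value of Calr is uncertain to that extent. Reads shared with pseudogenes were not examined for Calr or for any other member.

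The 6 genes of disulfide bond formation all rose, by a median log2 fold change of 0.74 and over a wide range. Ero1l encodes the oxidase ERO1 alpha, which reoxidises protein disulfide isomerases. It had 205, 193 and 197 CPM with PM2.5 and 79.3, 88.4 and 79.1 CPM with PBS, a log2 fold change of 1.27 (SE 0.05, edgeR adjusted p = 3.97e-09). It was the only one of the 6 past 2-fold. Its relative Ero1lb (ERO1 beta) had 17.4, 15.9 and 15.2 CPM in the PM2.5 libraries against 8.66, 8.46 and 8.62 CPM in the PBS libraries (log2 fold change 0.92, SE 0.08). Among the isomerases, Pdia6 rose by 0.85, P4hb, which encodes PDI itself, by 0.64 and Pdia4 by 0.37 on the log2 scale. Pdia6 had 349.7 to 364 CPM with PM2.5 against 197 to 199 CPM with PBS, P4hb had 727 to 755 CPM with PM2.5 against 473 to 486 CPM with PBS, and Pdia4 had 198 to 202 CPM with PM2.5 against 151 to 156 CPM with PBS. No range touched its counterpart. Pdia3 encodes ERp57, the isomerase that works with the lectin chaperones and in the loading of MHC class I. It had 631, 632 and 635 CPM with PM2.5 and 603, 615 and 555 CPM with PBS. The groups lay close together and the change was the smallest of the 34, at 0.10 (SE 0.04, edgeR adjusted p = 0.0382). Its call was lost in 8 of 13 alternatives, over adjusted p values of 0.0122 to 0.431, and without PBS replicate 3 the value was 0.05.

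The 3 sensor and transducer genes rose together. Atf6 had 247, 244 and 240 CPM in the PM2.5 libraries and 83.7, 91.7 and 85.1 CPM in the PBS libraries (log2 fold change 1.49, SE 0.04, edgeR adjusted p = 3.03e-10). Xbp1 had 259, 264 and 262 CPM with PM2.5 and 130, 135 and 132 CPM with PBS (0.99, SE 0.03), just short of 2-fold. Ern1, the gene of IRE1 alpha, had 69.2, 71.5 and 73.9 CPM with PM2.5 and 42.1, 39.1 and 40.4 CPM with PBS (0.82, SE 0.05). Atf6 thus changed most of them. Counts per gene do not show the splicing of Xbp1 or the cutting of the ATF6 protein. Eif2ak3, the gene of the sensor PERK, no member and named after its value was seen, had 130, 119 and 129 CPM in the PM2.5 libraries against 122, 121 and 119 CPM in the PBS libraries, and did not pass (log2 fold change 0.06, SE 0.04, edgeR adjusted p = 0.215). Of the factors downstream of PERK, Atf4 rose 5.54-fold, and Ddit3 (CHOP) stood at 240.1 CPM with PM2.5 and 14.98 CPM with PBS, also past the threshold.

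Of the 10 degradation genes 8 rose and 2 fell, with a median log2 fold change of 0.48. Herpud1 encodes a membrane protein that organises the ubiquitin ligase complex of ERAD (ENSMUSG00000031770, chromosome 8, 94386438 to 94395377), and its promoter is the one printed with ERSE-II and CARE. It had 541, 484 and 479 CPM with PM2.5 and 71.1, 69.6 and 70.1 CPM with PBS, a log2 fold change of 2.84 (7.14-fold, SE 0.05, edgeR adjusted p = 2.16e-11). Every PM2.5 library was far above every PBS library, and 0.771% of all genes tested had a larger rise. The ligase Syvn1 (HRD1) had 243, 251 and 248 CPM with PM2.5 and 95.5, 99.8 and 108 CPM with PBS (1.29, SE 0.04). Its scaffold Sel1l had 276, 178 and 265 CPM in the PM2.5 libraries and 85.5, 84.0 and 84.5 CPM in the PBS libraries (2.83-fold, SE of the log2 value 0.20, edgeR adjusted p = 0.00211). Replicate 2 of the PM2.5 group was the low one for Sel1l, though still above all PBS libraries. Without that library the log2 fold change was 1.68.

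The derlins are membrane proteins through which substrates leave the ER. Derl1 had 258, 267 and 260 CPM with PM2.5 and 92.8, 90.7 and 86.5 CPM with PBS (log2 fold change 1.54, SE 0.04, edgeR adjusted p = 1.29e-10). Derl2 rose by 0.28 (SE 0.05) and Derl3 by 0.38 (SE 0.10) on the log2 scale. Derl2 had 50.1 to 50.7 CPM with PM2.5 and 39.1 to 42.8 CPM with PBS, and its exons share 231 bases with Mis12 on the other strand (63.3 CPM with PM2.5, 55.7 CPM with PBS). Derl3, at 7.45 to 8.26 CPM with PM2.5 and 5.59 to 6.70 CPM with PBS, was among the lowest of the 34 genes. The EDEM proteins trim mannose from misfolded glycoproteins and so mark them for disposal. Edem1 rose by 0.59 (SE 0.04) and Edem3 by 0.24 (SE 0.04). Edem1 had 253 to 260 CPM with PM2.5 and 164 to 180 CPM with PBS, and Edem3 had 122 to 128 CPM with PM2.5 and 102 to 111 CPM with PBS, so these 2 rose without overlap. Edem2, which makes the first cut, fell by 0.42 on the log2 scale, with 56.2, 60.1 and 57.0 CPM in the PM2.5 libraries against 75.8, 76.3 and 79.1 CPM in the PBS libraries (SE 0.04, edgeR adjusted p = 9.18e-06).

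Os9, the lectin that reads the trimmed glycans and hands them to the SEL1L complex, had 149, 128 and 154 CPM with PM2.5 and 164, 163 and 165 CPM with PBS. The PM2.5 values lay below all PBS values, with replicate 2 lowest as for Sel1l. The log2 fold change was -0.19 (SE 0.07, edgeR adjusted p = 0.0312), and it was -0.11 (edgeR adjusted p = 0.0255) without PM2.5 replicate 2. When any 1 of the PBS replicates was left out Os9 did not pass (edgeR adjusted p = 0.0778, 0.0950 and 0.0908). Edem2 kept its call in all 13 alternatives.

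KDEL receptors return escaped chaperones from the Golgi by their C-terminal signal. Kdelr3 showed the largest rise of the 34 genes and the 31st of all 12967 genes tested (ENSMUSG00000010830, chromosome 15, 79516408 to 79527739). It had 274, 302 and 260 counts in the PM2.5 libraries against 9, 6 and 13 counts in the PBS libraries, or 10.3, 11.8 and 10.5 CPM with PM2.5 and 0.398, 0.302 and 0.566 CPM with PBS. The 3 PBS libraries were thus all near the limit of detection and the 3 PM2.5 libraries all far above it (log2 fold change 4.65, SE 0.18, edgeR adjusted p = 3.99e-09). On log2(FPKM + 1), which draws low values together, the change was 2.71. The exons of Kdelr3 share 4 bases with Ddx17 on the other strand, which moved the other way (log2 fold change -0.58). Kdelr2 had 117, 119 and 116 CPM with PM2.5 and 42.7, 44.2 and 43.0 CPM with PBS (1.44, SE 0.04, edgeR adjusted p = 2.38e-10). Kdelr1 had 85.5, 84.4 and 82.8 CPM with PM2.5 and 60.6, 66.6 and 62.6 CPM with PBS (0.41, SE 0.04, edgeR adjusted p = 1.22e-05).

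The sizes of change of relatives within a family were set side by side. The log2 ratio of 1 relative to another within each library was compared between the groups for 10 pairs of the KDEL receptors, derlins, EDEM proteins and ERO1 oxidases. The two-sided exact permutation test cannot go below p = 0.1 with 3 against 3 libraries, so no pair could pass 0.05. For 9 of the 10 pairs the ratios did not overlap between the groups (exact permutation p = 0.1, and 0.111 adjusted over the pairs). Lack of overlap is the common state in this comparison, at 74.8% of single genes tested, and its share among gene pairs in general was not computed, so the differences are given as a description. The change of Kdelr2 exceeded that of Kdelr1 by 1.02 and fell short of that of Kdelr3 by 3.22 on the log2 scale. Derl1 moved further than Derl2 by 1.26 and further than Derl3 by 1.16, whereas the ratio of Derl2 to Derl3 overlapped between the groups (exact permutation p = 0.5). Edem1 and Edem2 parted by 1.01 on the log2 scale, and Ero1l and Ero1lb by 0.36.

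**Figure D3:**
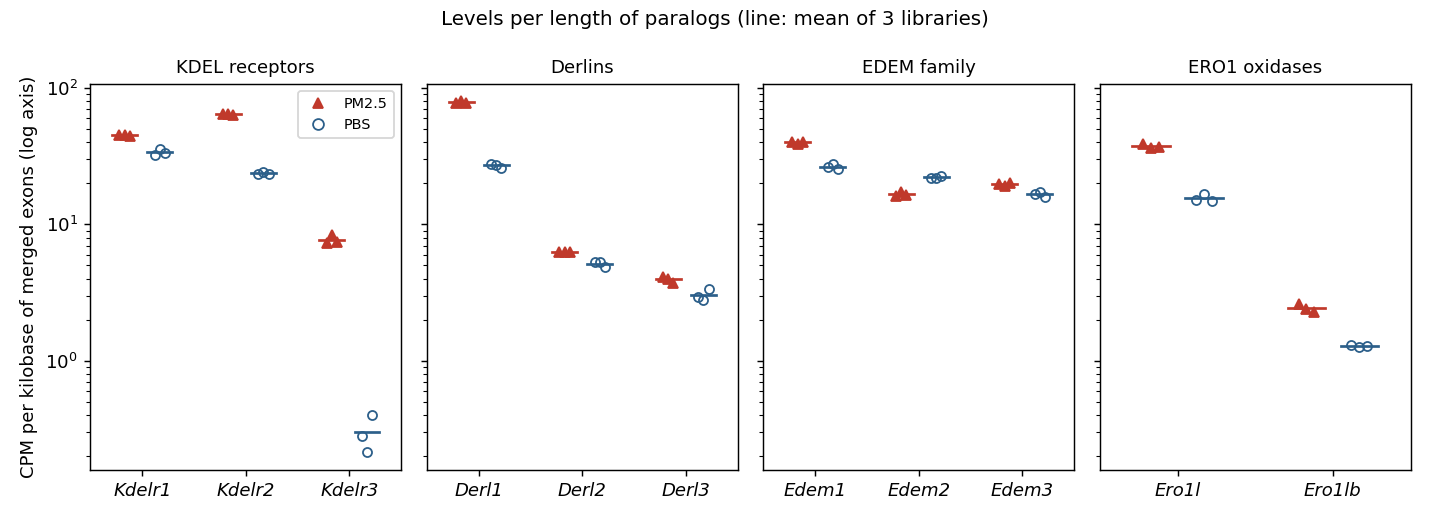
Levels of the 4 families of relatives in CPM per kilobase of merged exons, on a log axis (triangles, PM2.5; open circles, PBS; n = 3 each; lines, means). Kdelr3 lies at 7.70 with PM2.5 and 0.299 with PBS, Derl1 at 78.6 with PM2.5 and 27.0 with PBS, and Edem2 is the only one of the 11 genes that is lower with PM2.5.

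To set the genes beside each other, CPM were divided by the merged exon length of each gene in GENCODE M21. Calr was first in both groups, at 345 ± 4.04 CPM per kilobase with PM2.5 and 212 ± 7.55 with PBS (SD, n = 3). In the PM2.5 libraries P4hb (261), Hspa5 (241), Hsp90b1 (233), Herpud1 (215) and Pdia3 (202) followed, in CPM per kilobase. In the PBS libraries the order after Calr was Pdia3 (188), P4hb (167), Hsp90b1 (129), Canx (87.1) and Hspa5 (74.6), and Herpud1 (30.1) stood in place 15. Some neighbours in this order were close and others apart. With PM2.5, Calr (340.2 to 348) and P4hb (254 to 264) did not overlap each other or the genes below them. Hspa5 lay at 237 to 243 and Hsp90b1 at 229 to 238 CPM per kilobase, which overlap. Herpud1 (205 to 232) overlapped Hsp90b1 as well and reached down almost to Pdia3 (201 to 202). The level of Hspa5 was 1.02, 1.04 and 1.03 times that of Hsp90b1 in the PM2.5 libraries and 0.599, 0.550 and 0.590 times in the PBS libraries. Against Pdia3 it was 1.21, 1.21 and 1.17 times with PM2.5 and 0.395, 0.387 and 0.408 times with PBS. These ratios moved beyond their spread, yet which gene is higher depends on the length used, since the lengths behind the deposited FPKM were 0.637 to 2.26 times the merged exon length. By deposited FPKM Calr stood in place 1 with PM2.5 but in place 2 with PBS, after Pdia3. Hspa5 stood by this measure in place 5 with PM2.5 and in place 7 with PBS, below Hsp90b1 and Pdia3 in both groups. However, the length behind the deposited FPKM of Hspa5, 6.952 kilobases, exceeds its whole locus of 5.578 kilobases. The deposited FPKM of Hspa5 is therefore too low for a comparison with other genes.

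Other genes of the same compartment were counted from 6 lists of 156 genes, of which 148 were tested. Their median log2 fold change was 0.38: 102 of them rose (68.9%), 11 fell and 35 missed the threshold. The list of transport between ER and Golgi moved most, with 23 of 28 genes higher, 12 of them at least 2-fold, and 1 lower, and a median of 0.81. Its largest rise was that of Sec23a, a coat subunit of the vesicles that leave the ER, which had 193, 175 and 183 CPM in the PM2.5 libraries against 33.97, 32.4 and 32.0 CPM in the PBS libraries (log2 fold change 2.48, SE 0.05, edgeR adjusted p = 3.13e-11). The coat subunits Sec24d (1.74) and Sec31a (1.19) followed. The 1 gene that fell was Sec31b, at 1.06 CPM with PM2.5 and 1.68 CPM with PBS, named after its value was seen.

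Of the 30 other ERAD genes 23 rose and 7 did not pass in edgeR's test, with a median of 0.38 and values of the 7 that ran from -0.24 up to 0.90. The largest rises were those of Vimp (2.01), which recruits the p97 ATPase to derlins, Erlin1 (0.999), a membrane scaffold, and Fam8a1 (0.82), a partner of HRD1. Of 23 genes of translocation into the ER 15 rose and 2 fell. The channel subunit Sec61a1 rose by 1.29, the signal recognition receptor Srpr by 0.98 and Ssr3 by 0.91 on the log2 scale, while the signal peptidase subunits Sec11c (-0.42) and Spcs2 (-0.29) fell. Of 26 genes of N-glycosylation 20 rose and 1 fell. The oligosaccharyltransferase subunit Stt3a (1.38), the mannosyltransferase Alg3 (0.83) and Ostc (0.75) led, and the glucosyltransferase Alg8 fell by 0.21.

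The other folding enzymes were the most divided list, with 14 of 29 higher and 6 lower and a median of 0.22. The isomerase Pdia5 (2.17), Txndc11 (0.90) and Hspa13 (0.89) rose, and the thioredoxin-related Tmx4 (-0.58), the sulfhydryl oxidase Qsox1 (-0.44) and the peroxiredoxin Prdx4 (-0.44) fell. Of 12 other sensors and regulators 7 rose and 1 fell. They included the glycoprotein hormone gene Stc2, at 5.45, 5.25 and 5.64 CPM with PM2.5 and 0.309, 0.403 and 0.305 CPM with PBS (log2 fold change 4.00, SE 0.18), and the membrane-bound factors Creb3 (1.21) and Atf6b (0.77). The 1 that fell was Creb3l1, at 0.349 CPM with PM2.5 and 0.851 CPM with PBS, named after its value was seen.

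**Figure D4:**
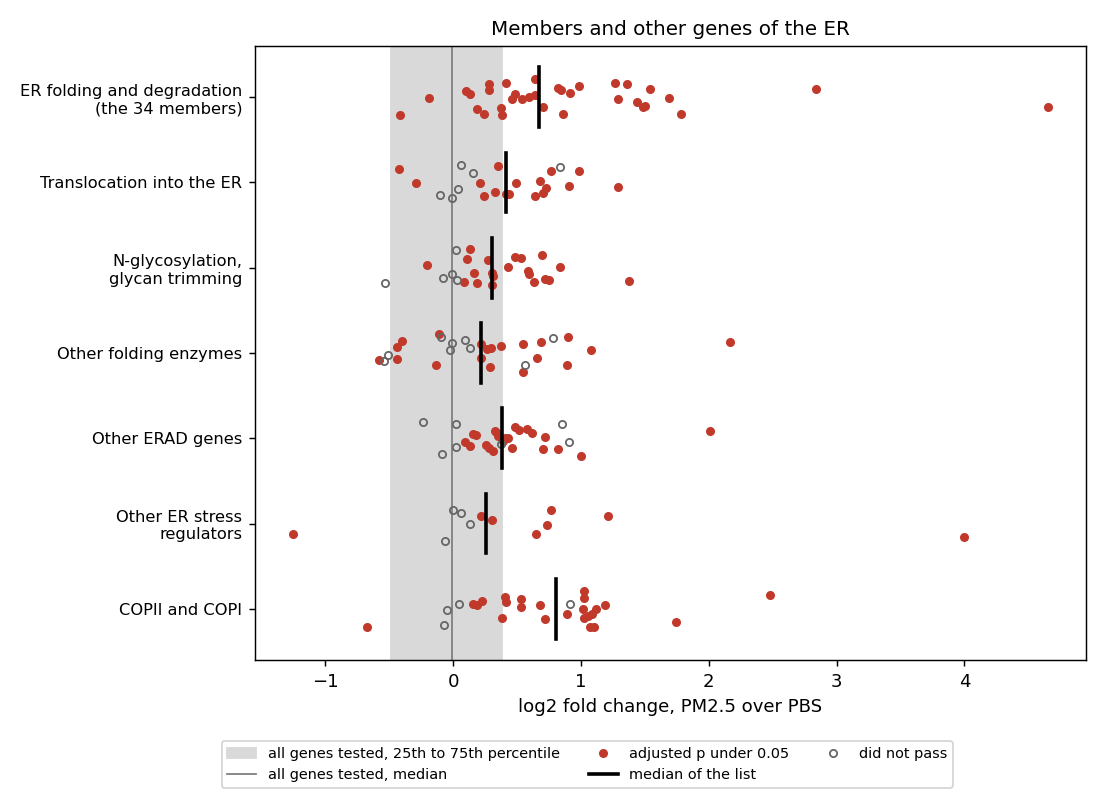
Log2 fold changes of PM2.5 over PBS for the 34 members and for the genes tested of 6 other lists of the ER; filled points passed an adjusted p of 0.05, open points did not, and black bars are medians. The grey band spans the 25th to 75th percentile of all genes tested (-0.49 to 0.38). The medians are 0.67 for the members and 0.81 for transport between ER and Golgi, and the other 5 lists lie between 0.22 and 0.41.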

How the data were processed

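The deposited table gave, for each gene, whole-number counts of reads and, beside them, FPKM (reads scaled to gene length and library total) computed by the authors, per the file headers. Reads were aligned with TopHat2 2.0.6 to mm10, per the submitters' processing notes; how reads were counted, and with which strand setting, is not given in the sources used here. For the 11189 genes with more than 20 counts in every library, the deposited FPKM equalled counts divided by library total and by 1 length per gene, within 0.00425%.

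Counts of the 6 libraries were normalised by TMM and tested with edgeR 4.0.16 (robust quasi-likelihood F test, R 4.3.3) on the 12967 genes that passed filterByExpr (minimum count 10, minimum total 15), with Benjamini-Hochberg adjustment over all of them and a threshold of 0.05. The biological coefficient of variation was 8.17%. CPM are TMM-scaled except for marker sums, which use library totals, and 3 counts correspond to 0.110 to 0.118 CPM in PM2.5 and 0.134 to 0.154 CPM in PBS libraries. Replicates differed by more than sampling noise (chi-square per degree of freedom 7.57 to 9.89), so none was counted as a repeat of another; whether they are separate preparations of 1 culture was not tested. Levels per length used merged exon lengths of GENCODE M21, a choice made after the data were seen. Relatives were compared by the log2 ratio of their unscaled counts per library, with a pseudocount of 0.5 added to each count, and exact permutation tests.

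All 34 members are described. From each of the 6 other lists, at most 3 rises and 3 falls were named, the largest among genes past the threshold with a mean of at least 5 CPM in a group; Atf4 and Ddit3 were named as well. Members and lists were chosen with earlier results of these data known. Alternatives were other scalings and filters, DESeq2 1.42.0, limma 3.58.1 on log2(FPKM + 1), leaving out each library and a replicate block. The method was tested on simulated data, with the same coefficient of variation for all genes. It recovered 40% of 1.25-fold changes, 94% of 1.5-fold changes and 100% of 2-fold and 4-fold changes. Of unchanged genes it called 0.0552%. Smaller changes, such as those of Pdia3 and Dnajc3, were not simulated. RefSeq promoters were read from the table for GRCm38.p6.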

Additional observations from a re-analysis of the deposited data

How the results depend on the processing

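No direction reversed in any of the 13 alternatives, and 11 members were at least 2-fold higher in each of them. The number of members higher stayed at 30 to 32. The median log2 fold change of the members was 0.67. It moved by more than the spread between libraries with library totals (0.607) and with a filter at 5 CPM (0.613). The same held with limma on log2(FPKM + 1) (0.598). The median of all genes also moved, from -0.007 to -0.0715 with library totals and to -0.0402 with limma. With the filter at 5 CPM members shifted down by similar amounts. Hspa5 went from 1.69 to 1.63, Edem2 from -0.42 to -0.47 and Kdelr3 from 4.65 to 4.59. Leaving out 1 library at a time gave 1 to 2 members lower, since Os9 did not pass when any 1 of the PBS replicates was left out. Pdia3 lost its call in 8 alternatives, at 0.034 with library totals, 0.040 with a filter at 5 CPM, 0.035 with limma and 0.098 with DESeq2, and Dnajc3 lost its call in 3 of them. The change of Dnajc10 fell to 0.114 and that of Derl2 to 0.179 in some settings, with their calls kept. Kdelr3 was at 2.71 with limma, where the 1 added to FPKM shrinks the difference between low values (mean 7.51 FPKM with PM2.5 and 0.305 FPKM with PBS). Other ER genes called higher numbered 93 to 104, and those called lower 8 to 16.

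Libraries with the same replicate number did not deviate together (correlations 0.013, 0.007 and 0.045), so no pairing by number was seen. A shared origin is not excluded by this, since libraries with different numbers were not compared in this way. With the replicate number as a block, 32 members were higher and 2 lower, 11 were at least 2-fold higher, the median was 0.672, and 103 of the other ER genes were higher and 11 lower. Over all genes 9002 were called with the block and 9149 without it. With 3 libraries a group and no statement of their origin, small changes such as those of Pdia3, Dnajc3 and Os9 are at the limit of what these data resolve.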
